A study of Caenorhabditis elegans with 12 samples.

Results

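The 10 genes described here encode parts of the DNA replication machinery of Caenorhabditis elegans and the enzyme that makes its deoxynucleotides. They were chosen by symbol as mcm-2, mcm-3, mcm-4, mcm-5, mcm-6, mcm-7, pcn-1, rnr-1, rnr-2 and div-1, and all 10 were found among the 44968 features counted and among the 18028 genes tested. The libraries hold poly(A) RNA of whole L1 larvae of the wild-type strain N2, collected 24 h after bleached embryos had been set on plates at 25 °C. The 4 groups, each of 3 biological replicates A to C, were unfed larvae on 500 mM NaCl (unfed high-salt), larvae on 500 mM NaCl with OP50 bacteria (fed high-salt), unfed larvae on 100 mM NaCl (unfed low-salt) and larvae on 100 mM NaCl with OP50 (fed low-salt). OP50 is the E. coli strain on which the worms feed. All 4 groups share the strain, the stage given in the labels, the time and the temperature, and each library pools the larvae washed off plates.

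As background, the proteins of mcm-2 to mcm-7 form a ring-shaped helicase that the origin recognition complex, CDC-6 and CDT-1 load onto DNA before S phase, a step called licensing. At the fork the ring unwinds DNA, div-1 provides the B subunit of the DNA polymerase alpha-primase that starts each new strand, and pcn-1 encodes PCNA, the sliding clamp that holds polymerases on the template. Ribonucleotide reductase, whose large subunit is RNR-1 and whose small subunit is RNR-2, turns ribonucleotides into deoxynucleotides. In L1 larvae that hatch without food, postembryonic blast cells hold their divisions until feeding starts.

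High salt went with low levels of all 10 genes, whether or not bacteria were present, and the presence of bacteria moved none of them past the test at either salt level. Few genes of any kind passed the test for food: 7.68% of all genes at 100 mM NaCl and 0.0777% at 500 mM NaCl. A count of 0 in 10 is near those shares. Estimates were largest in size for pcn-1, mcm-2, mcm-4 and rnr-1 with food, and smallest for rnr-2 and div-1 at both food levels. Levels are given as CPM, counts per 1000000 reads of the library size scaled by edgeR's TMM method, with values in the order of replicates A, B and C. A gene was called where the p adjusted over all 18028 genes (Benjamini-Hochberg) lay under 0.05 in edgeR's quasi-likelihood F-test on all 12 libraries.

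The libraries differed in depth and make-up. Reads on genes ran between 5613260 in unfed high-salt A and 76542711 in fed low-salt C. Ribosomal RNA took 6.32% to 81.8% of them in high-salt libraries and 1.32% to 12.4% in low-salt libraries. Fed high-salt C had the largest ribosomal share and had 694 reads on the 10 genes, against 40448 in fed low-salt C, and unfed high-salt A had the smallest share of reads aligned, 38.6%. The smallest count of any of the 10 genes was 34 reads, for pcn-1 in fed high-salt C. Because these are whole larvae, fewer cells that express a gene and less RNA per cell cannot be told apart in any value below.

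**Figure D1:**
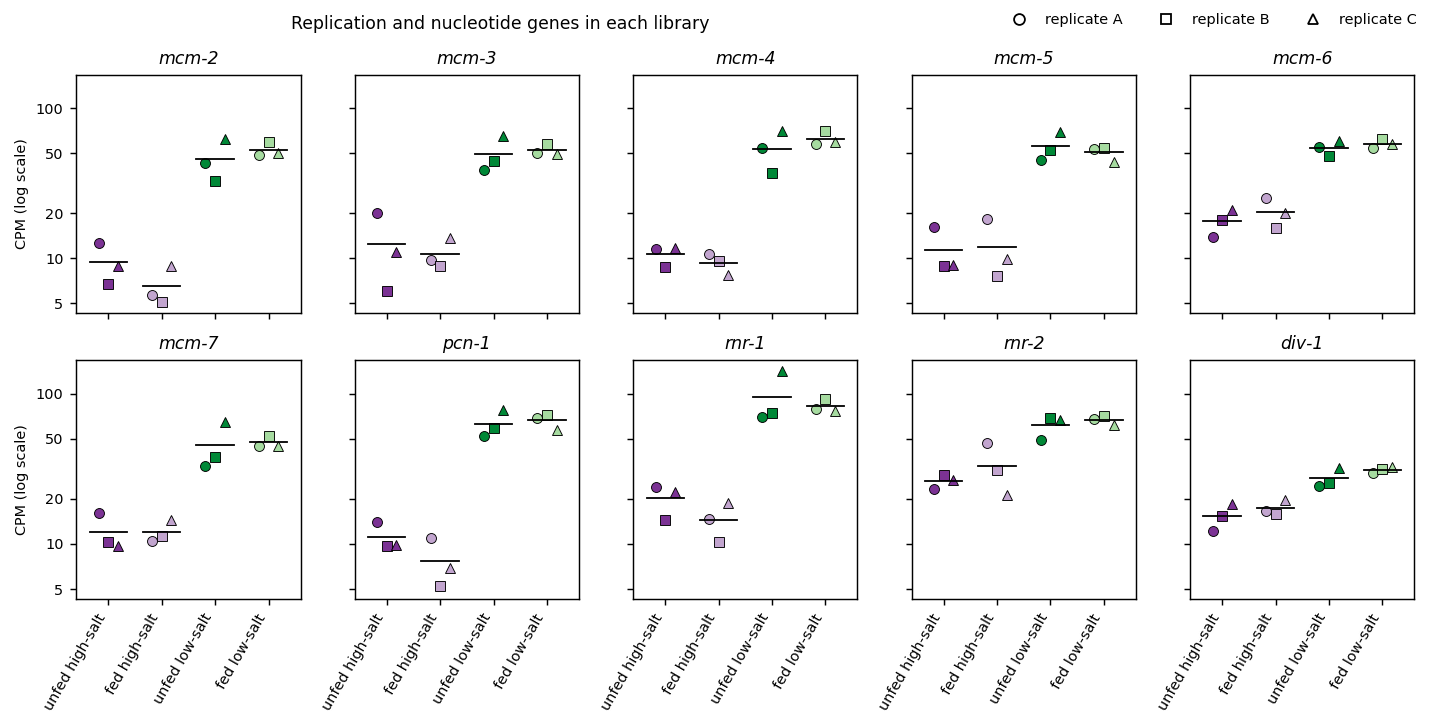
Level of each of the 10 genes in every library, in CPM on a log scale. Groups run left to right as unfed high-salt, fed high-salt, unfed low-salt and fed low-salt, symbols mark replicates A to C and bars mark the mean of 3 libraries; in each panel the 6 high-salt libraries lie below the 6 low-salt libraries.

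The helicase subunits come first. For mcm-2 (sequence name Y17G7B.5, chromosome II), CPM were 12.5, 6.69 and 8.89 in unfed high-salt and 5.70, 5.09 and 8.94 in fed high-salt larvae, against 43.0, 32.8 and 62.0 in unfed low-salt and 48.5, 59.8 and 50.7 in fed low-salt larvae. The lowest low-salt library, unfed low-salt B, was still above the highest high-salt library, unfed high-salt A. Between salt levels mcm-2 fell by 3.05 ± 0.32 (SE, n = 3 each) on the log2 scale with food (adjusted p = 6.83e-06, edgeR) and fell by 2.31 ± 0.31 without food (adjusted p = 9.34e-05, edgeR). With food this left 12.4% of the fed low-salt mean, the smallest remainder among the 6 MCM genes.

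For mcm-3 (C25D7.6, chromosome V), unfed high-salt larvae had 19.9, 6.09 and 11.1 CPM and fed high-salt larvae 9.73, 8.85 and 13.6 CPM, against 38.5, 44.3 and 65.4 CPM in unfed low-salt and 50.3, 57.5 and 49.8 CPM in fed low-salt larvae. The unfed high-salt libraries spread most for this gene, with a coefficient of variation of 56.6%, and did not reach the low-salt range. The gene fell by 2.31 ± 0.36 with food (adjusted p = 0.000158) and fell by 2.02 ± 0.36 without it (adjusted p = 0.00086, both edgeR, n = 3 each). For mcm-4 (Y39G10AR.14, chromosome I), CPM were 11.5, 8.71 and 11.7 in unfed high-salt and 10.7, 9.57 and 7.72 in fed high-salt larvae, against 54.1, 36.9 and 70.0 in unfed low-salt and 57.4, 70.7 and 59.2 in fed low-salt larvae. The 6 high-salt values sat close together, between 7.72 and 11.7 CPM, while the low-salt values differed more among themselves. This gene fell by 2.73 ± 0.28 with food (adjusted p = 5.03e-06) and fell by 2.34 ± 0.27 without food (adjusted p = 2.48e-05, both edgeR, n = 3 each).

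For mcm-5 (R10E4.4, chromosome III), high-salt libraries held 16.2, 8.93 and 9.07 CPM without food and 18.2, 7.64 and 9.95 CPM with it, against low-salt libraries of 45.5, 52.6 and 69.5 CPM without food and 53.7, 54.7 and 43.8 CPM with it. Replicate A was the highest of its group at both food levels in high salt, yet less than the lowest low-salt library. This gene fell by 2.07 ± 0.34 with food (adjusted p = 0.000202) and fell by 2.31 ± 0.34 without food (adjusted p = 0.00018, both edgeR, n = 3 each). The values of mcm-6 (ZK632.1, chromosome III) were 13.8, 18.1 and 21.1 CPM in unfed high-salt and 25.16, 15.9 and 19.9 CPM in fed high-salt larvae, against 55.2, 47.9 and 60.8 CPM in unfed low-salt and 54.1, 62.4 and 57.7 CPM in fed low-salt larvae. It kept more of its level than the other MCM genes, 30.4% and 35% of the fed low-salt mean in unfed and fed high-salt larvae. On the log2 scale mcm-6 fell by 1.51 ± 0.25 with food (adjusted p = 0.000209) and fell by 1.63 ± 0.25 without food (adjusted p = 0.00024, both edgeR, n = 3 each). Lastly, mcm-7 (F32D1.10, chromosome V) had 16.1, 10.3 and 9.64 CPM in unfed high-salt and 10.4, 11.2 and 14.4 CPM in fed high-salt larvae, against 33.1, 38.1 and 64.9 CPM in unfed low-salt and 44.7, 52.7 and 45 CPM in fed low-salt larvae. Its groups also stood apart by salt, with log2 fold changes of -2.0 ± 0.30 with food (adjusted p = 9.96e-05) and -1.93 ± 0.29 without food (adjusted p = 0.000256, both edgeR, n = 3 each).

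Next come the genes that act at the fork once it is running. The clamp gene pcn-1 (W03D2.4, chromosome IV) had 14, 9.62 and 9.88 CPM in unfed high-salt and 11, 5.27 and 6.90 CPM in fed high-salt larvae, against 52.5, 59.6 and 77.5 CPM in unfed low-salt and 69.4, 72.8 and 57.8 CPM in fed low-salt larvae. The gap between the salt levels was wide, from 14 CPM in the highest high-salt library up to 52.5 CPM in the lowest low-salt one. Its log2 fold changes were -3.10 ± 0.31 with food (adjusted p = 4.24e-06) and -2.51 ± 0.30 without food (adjusted p = 2.87e-05, both edgeR, n = 3 each). With food pcn-1 and mcm-2 differed by less than their SEs, and without fed high-salt C mcm-2 was the lower of them, at -3.37. Of all genes tested, 3.37% had a lower fold change than pcn-1 with food and 3.93% without food. The primase-linked gene div-1 (R01H10.1, chromosome III) had 12.1, 15.3 and 18.3 CPM in unfed high-salt and 16.6, 15.8 and 19.7 CPM in fed high-salt larvae, against 24.2, 25.5 and 32.2 CPM in unfed low-salt and 29.7, 31.3 and 32.7 CPM in fed low-salt larvae. Its groups did not overlap either, but the nearest values, 19.7 and 24.2 CPM, were close. It had the log2 fold change nearest to 0, -0.85 ± 0.23 with food (adjusted p = 0.00825) and -0.84 ± 0.23 without food (adjusted p = 0.0171, both edgeR, n = 3 each). With upper-quartile scaling div-1 was not called with food (log2 fold change -0.42, adjusted p = 0.105, edgeR). Without food it was not called when unfed low-salt C (adjusted p = 0.157) or unfed high-salt B (adjusted p = 0.0548) was left out, or when only the 2 groups entered the fit (adjusted p = 0.131, all edgeR).

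The reductase genes follow. Large-subunit gene rnr-1 (T23G5.1, chromosome III) had 24.1, 14.4 and 22.1 CPM in unfed high-salt and 14.6, 10.2 and 18.7 CPM in fed high-salt larvae, against 70.2, 74.4 and 142 CPM in unfed low-salt and 79.7, 91.9 and 76.7 CPM in fed low-salt larvae. Unfed low-salt C was the highest library by far, and the salt levels did not overlap. It fell by 2.53 ± 0.33 with food (adjusted p = 3.6e-05) and fell by 2.25 ± 0.32 without food (adjusted p = 0.000165, both edgeR, n = 3 each). Small-subunit gene rnr-2 (C03C10.3, chromosome III) had 23.3, 28.6 and 26.6 CPM in unfed high-salt and 47.0, 30.8 and 21.1 CPM in fed high-salt larvae, against 49.5, 68.8 and 67.3 CPM in unfed low-salt and 67.8, 71.0 and 61.7 CPM in fed low-salt larvae. Here fed high-salt A, at 47.0 CPM, came within a few CPM of the lowest low-salt library. The gene fell by 1.01 ± 0.27 with food (adjusted p = 0.00884) and fell by 1.24 ± 0.28 without food (adjusted p = 0.00473, both edgeR, n = 3 each).

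Counted together, all 10 genes were called lower at 500 than at 100 mM NaCl with food, where 22.1% of all genes tested were called lower, and all 10 were called lower without food, where 11.2% of all genes were. Their median log2 fold change was -2.19 with food and -2.13 without, beside medians over all genes of 0.12 and 0.08. In both comparisons the 3 high-salt libraries lay below the 3 low-salt libraries for 10 of 10 genes, which held for 32.1% of all genes with food and 16.8% without. All 6 high-salt libraries were below all 6 low-salt libraries for the 10 genes and for 11.6% of all genes, and 9.11% of all genes were called lower at both food levels. Over all genes 3993 were called lower and 2905 higher with food, and 2018 lower and 1212 higher without. Upper-quartile scaling turned this split to 2705 lower and 4750 higher with food and 1750 lower and 1783 higher without, while all 10 genes stayed below 0 in log2 fold change. With unfed high-salt A and fed high-salt C both left out, all 10 genes were again called lower, with log2 fold changes between -3.33 and -0.82 with food and between -2.65 and -0.66 without food (highest adjusted p = 0.0472, edgeR). In the authors' deposited table of edgeR results, whose fold changes run low over high salt, all 10 genes had a false discovery rate under 0.05 in both salt comparisons, the largest being 0.0109 with food and 0.012 without food, each for div-1.

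**Figure D2:**
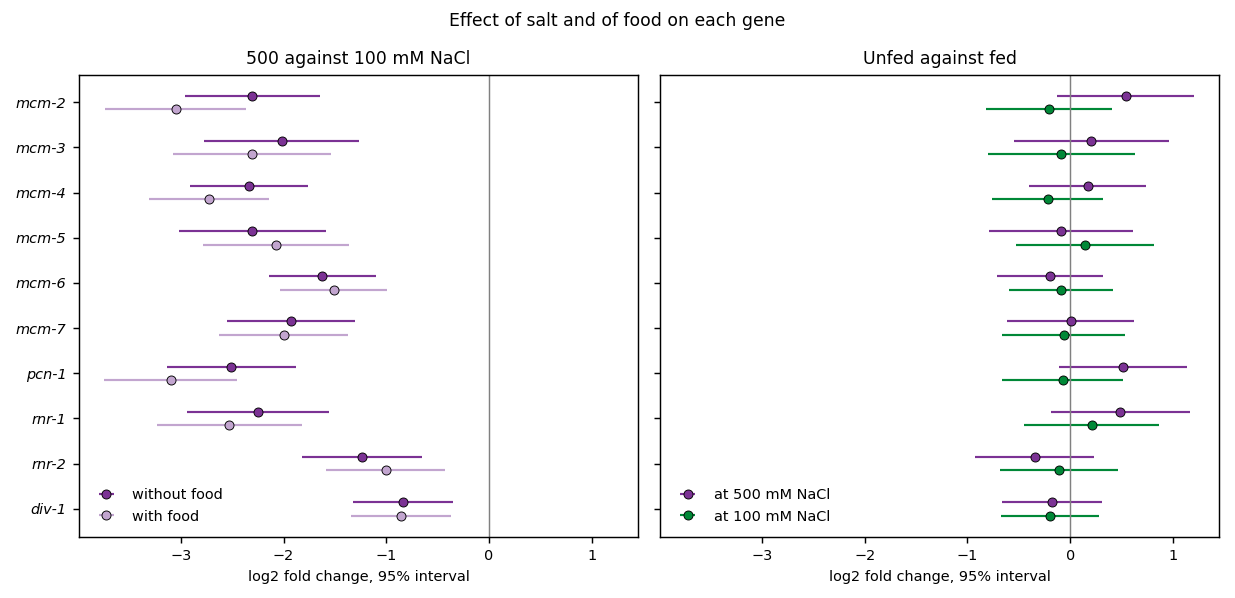
Log2 fold change of each gene with its 95% interval from edgeR's quasi-likelihood fit. The left panel sets 500 against 100 mM NaCl, without food and with food, and the right panel sets unfed against fed larvae, at 500 and at 100 mM NaCl; all 20 intervals on the left lie below 0 and all 20 on the right include 0.

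Food is the other factor. In unfed against fed low-salt larvae 0 of 10 genes were called, where 7.68% of all genes were called in either direction (4.11% lower and 3.57% higher), and 0 of 10 had an unadjusted p under 0.05 in edgeR's quasi-likelihood test. DESeq2 and edgeR's exact test also called 0. The log2 fold changes were between -0.22 for mcm-4 and 0.21 for rnr-1, with a median of -0.09 beside 0.15 over all genes, and adjusted p ran between 0.593 and 0.898. The 95% intervals together covered -0.82 to 0.86 on the log2 scale, and the interval of a single gene was narrower, such as -0.59 to 0.42 for mcm-6 and -0.67 to 0.28 for div-1. Unfed low-salt C stood out within its group: all 10 genes were above their group mean in it, and their summed level was 712 CPM, against 466 and 481 CPM in replicates A and B. Without that library the log2 fold changes of all 10 genes were negative, between -0.60 and -0.15, and 0 were called (lowest adjusted p = 0.175, edgeR). The salt effect without food, which rests on the same library, then ran between -2.27 and -0.62, with 9 of 10 called.

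In high salt the comparison of unfed with fed larvae again called 0 of 10 genes, with 0.0777% of all genes called. None of the 10 had an unadjusted p under 0.05 in edgeR's quasi-likelihood test, and 0 were called by DESeq2 or the exact test. The estimates ran between -0.34 for rnr-2 and 0.54 for mcm-2, with 95% intervals that together covered -0.92 to 1.2. The highest estimates were those of mcm-2, pcn-1 at 0.51 and rnr-1 at 0.49, each with an interval that included 0. The test of whether salt acted differently with and without food, the interaction, called 0 of 10 genes where it called 2.0% of all genes. Its estimates ran between -0.23 and 0.75, with intervals that covered -1.2 to 1.65. For the interaction 0 of 10 had an unadjusted p under 0.05 in edgeR's quasi-likelihood test and DESeq2 called 0.

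Fed high-salt larvae were also set against unfed low-salt larvae, which have no bacteria. Here 9 of 10 genes were called lower in the fed high-salt group, where 14.5% of all genes were, and the libraries of the 2 groups did not overlap for 10 of 10 genes, as for 23.3% of all genes. The lowest log2 fold change was that of pcn-1, -3.02 ± 0.30 (adjusted p = 9.77e-06, edgeR, n = 3 each). The tenth gene, div-1, was at -0.66 on the log2 scale (adjusted p = 0.0509, edgeR). Both div-1 and rnr-2 changed sides of the threshold under other settings, and rnr-2 was not called with ribosomal genes removed (adjusted p = 0.0591, edgeR) or when fed high-salt B, fed high-salt C, unfed low-salt B or unfed low-salt C was left out (adjusted p between 0.1 and 0.149, edgeR). These 6 comparisons share groups, so they are not independent of each other.

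Levels of different genes were compared per kilobase of coding sequence, whose length runs between 789 nt for pcn-1 and 2643 nt for mcm-2. In low salt pcn-1 was highest, at 80.1 ± 16.3 CPM per kb in unfed and 84.5 ± 9.98 in fed larvae (SD, n = 3 each). Next were rnr-2 at 54.1 ± 9.40 and 58.5 ± 4.13 and rnr-1 at 40.4 ± 17 and 35 ± 3.40 CPM per kb. Below them the MCM genes lay close together, between 17.4 and 24.5 CPM per kb in unfed and between 20.1 and 25.29 in fed low-salt larvae, with SDs of 1.71 to 7.81. Within libraries mcm-2 was below mcm-4 in all 6 low-salt libraries, with a ratio of their CPM between 0.794 and 0.891. Last in low salt was div-1, at 15.7 ± 2.47 and 17.9 ± 0.85 CPM per kb. Without length scaling rnr-1 had rank 1 in both low-salt groups, and pcn-1 had rank 2 in unfed and rank 3 in fed low-salt larvae.

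In high salt the order of levels differed. The small-subunit gene rnr-2 was highest, at 22.9 ± 2.36 CPM per kb in unfed and 28.9 ± 11.5 in fed high-salt larvae. Here pcn-1 averaged 14.2 ± 3.15 and 9.78 ± 3.72 CPM per kb, and div-1, last in low salt, averaged 8.73 ± 1.78 and 9.97 ± 1.18 CPM per kb, which was rank 3 without food and rank 2 with it. The ranks of div-1 rest on differences within the SDs, since rnr-1 averaged 8.53 ± 2.16 CPM per kb in unfed high-salt larvae. The lowest mean was that of mcm-2, at 3.55 ± 1.12 and 2.49 ± 0.78 CPM per kb. Against exonic in place of coding length, div-1 kept those ranks and mcm-2 stayed last, while without length scaling div-1 had rank 4 in unfed and rank 3 in fed high-salt larvae.

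Since the helicase holds its subunits in equal numbers, the make-up of the MCM messages was followed within each library, a measure that library scaling does not alter. Their summed level was 30.7 ± 6.64 CPM per kb in unfed and 29.8 ± 4.72 in fed high-salt larvae, against 127 ± 31.9 in unfed and 135 ± 12.1 in fed low-salt larvae (SD, n = 3 each). In fed low-salt larvae the 6 genes had near-equal shares of that sum, between 14.9% for mcm-2 and 18.7% for mcm-4. The share of mcm-6 was 24.8 ± 8.47% in unfed and 28.0 ± 2.52% in fed high-salt larvae, against 18.1 ± 2.58% and 17.8 ± 0.79% in unfed and fed low-salt larvae. One high-salt library, unfed high-salt A, did not share this, with 15.1% for mcm-6, so the salt levels overlapped. The share of mcm-2 was 11.4 ± 1.14% and 8.37 ± 2.24% in unfed and fed high-salt larvae, against 13.5 ± 1.55% and 14.9 ± 0.51% in unfed and fed low-salt larvae.

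**Figure D3:**
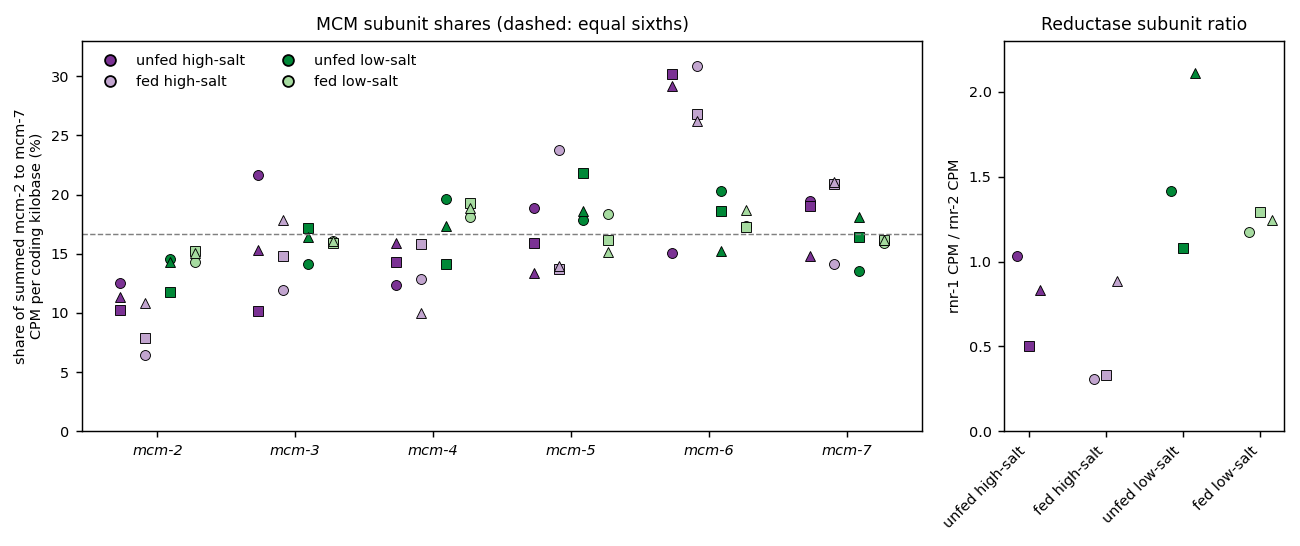
Left, share of each MCM gene in the summed CPM per coding kilobase of mcm-2 to mcm-7, in percent, with 1 symbol for each of the 12 libraries. Right, ratio of rnr-1 to rnr-2 CPM in each library, between 0.311 and 1.03 in high salt and between 1.08 and 2.11 in low salt; symbols mark replicates A (circle), B (square) and C (triangle).

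The balance within each complex was tested on 16 ratios, the 15 pairs of MCM genes and rnr-1 to rnr-2, by an exact permutation of the salt labels within each food level (400 arrangements, two-sided, smallest possible p = 0.005). The ratio of rnr-1 to rnr-2 CPM averaged 0.79 ± 0.27 in unfed and 0.51 ± 0.33 in fed high-salt larvae, against 1.54 ± 0.52 in unfed and 1.24 ± 0.06 in fed low-salt larvae (SD, n = 3 each). No high-salt library reached the low-salt range, and the difference was -1.21 on the log2 scale with p = 0.005 in the exact permutation test, the smallest it can give. After adjustment over the 16 ratios the value was 0.0533, just past the threshold. Next in size were mcm-2 to mcm-6, at -1.08 (exact permutation p = 0.015, adjusted 0.06), and mcm-4 to mcm-6, at -0.93 (exact permutation p = 0.01, adjusted 0.0533). Of the 16 ratios 0 had an adjusted p under 0.05, but a single ratio at the smallest possible p could not pass on its own after adjustment over 16, so this count says little about whether the balance of subunits changed.

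Inside groups, the deviation of each library was averaged over the 10 genes. Averaged over the 10, unfed low-salt C was 0.37 above its group mean on the log2 scale, and fed low-salt B, in which all 10 genes were also above their group mean, was 0.13 above. In high salt the genes split: over replicates A to C of the unfed high-salt group, 7, 3 and 5 of the 10 were above their group mean, with mean deviations of 0.22, -0.24 and 0.02. Over those of the fed high-salt group, 6, 1 and 5 of the 10 were above it, with mean deviations of 0.19, -0.25 and 0.06.

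Among 8467 other genes that averaged 10 CPM or more, those whose centred log2 profile over the 12 libraries was most like the mean profile of the 10 were bub-1, rif-1.1, icp-1, plk-1, pid-3 and dnj-27. Their root mean square differences from it were 0.156, 0.166, 0.169, 0.171, 0.185 and 0.2. Several of them act in mitosis: bub-1 encodes a kinetochore checkpoint kinase, icp-1 the inner centromere protein INCENP and plk-1 Polo-like kinase. The levels of bub-1 averaged 13.2 ± 3.90 CPM in unfed and 13.9 ± 2.80 CPM in fed high-salt larvae, against 48.1 ± 11.7 CPM in unfed and 55.8 ± 6.60 CPM in fed low-salt larvae (SD, n = 3 each). Among the 10 themselves mcm-7 was nearest to their mean, at 0.199, and div-1 farthest, at 0.631.

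Other genes of the pathway were followed in 6 lists that leave the 10 genes out. In the list of origin licensing and firing, 9 of 17 genes tested were called lower in high salt with food and 6 without, with medians of -1.35 and -0.62. The shares of all genes called lower were 22.1% with food and 11.2% without. Upper-quartile scaling gave 4 lower calls in the list with food and 3 without. Without food 2 were called when unfed low-salt C was left out and 3 when unfed high-salt C was left out. The loader gene cdt-1 averaged 7.50 ± 5.13 CPM in unfed and 5.66 ± 2.95 CPM in fed high-salt larvae, against 16.3 ± 2.23 CPM in unfed and 18.3 ± 1.80 CPM in fed low-salt larvae (SD, n = 3 each). It fell by 1.74 ± 0.45 with food (adjusted p = 0.00667) and had a log2 fold change of -1.15 without food (adjusted p = 0.0824, both edgeR, n = 3 each). With food cdt-1 was not called under upper-quartile scaling (adjusted p = 0.0595), and without food it was called when unfed high-salt A or fed high-salt B was left out (adjusted p = 0.00477 and 0.0494, all edgeR). Its partner cdc-6 had 22.5 ± 1.71 and 21.3 ± 3.13 CPM in unfed and fed high-salt larvae, against 19.0 ± 1.68 and 26.6 ± 0.62 CPM in unfed and fed low-salt larvae, with a log2 fold change of 0.25 without food (adjusted p = 0.459, edgeR). The origin recognition gene orc-2 fell by 0.80 ± 0.24 with food (adjusted p = 0.0154, edgeR), but was not called under upper-quartile scaling or a filter of 5 CPM, nor without fed high-salt B or fed low-salt C (adjusted p between 0.0503 and 0.255, edgeR). Another, orc-4, was listed at 0 reads in all 12 libraries, which is not taken as absence of its RNA.

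At the fork, 20 of 24 genes tested were called lower with food and 18 without, with medians of -1.37 and -1.22. Among all genes 22.1% were called lower with food and 11.2% without. The flap endonuclease gene crn-1 averaged 8.15 ± 1.6 CPM in unfed and 5.84 ± 2.37 CPM in fed high-salt larvae, against 25.12 ± 7.85 CPM in unfed and 36.2 ± 3.00 CPM in fed low-salt larvae, and it fell by 2.58 ± 0.32 with food (adjusted p = 2.27e-05, edgeR, n = 3 each). With food rfc-2, a subunit of the complex that loads PCNA, fell by 2.37 ± 0.30 (adjusted p = 2.66e-05), and the primase gene pri-2 fell by 2.18 ± 0.36 (adjusted p = 0.000241, both edgeR). Without food the single-strand binding gene rpa-1 fell by 1.38 ± 0.25 (adjusted p = 0.00116) and the DNA ligase gene lig-1 fell by 1.38 ± 0.24 (adjusted p = 0.000865, both edgeR). The topoisomerase gene top-1, named after its values were seen, had 171 and 152 CPM in unfed and fed high-salt larvae on average, against 161 and 158 CPM in unfed and fed low-salt larvae, and was called in neither comparison (adjusted p = 0.907 with food and 0.877 without, edgeR).

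Of the genes of nucleotide synthesis other than the reductase, 11 of 16 were called lower and 1, adss-1, higher with food, and 5 were called lower and 1, ppat-1, higher without food (both higher genes named after their values were seen). For all genes the shares were 22.1% lower and 16.1% higher with food, and 11.2% lower and 6.72% higher without. The thymidylate synthase gene tyms-1 had 5.66 ± 1.32 CPM in unfed and 4.51 ± 1.1 CPM in fed high-salt larvae, against 22.7 ± 7.48 CPM in unfed and 24.0 ± 2.86 CPM in fed low-salt larvae (SD, n = 3 each). It fell by 2.38 ± 0.31 with food (adjusted p = 3.77e-05) and fell by 2.02 ± 0.31 without food (adjusted p = 0.000254, both edgeR). The dUTPase gene dut-1 fell by 2.21 ± 0.26 with food (adjusted p = 1.37e-05) and fell by 2.38 ± 0.26 without food (adjusted p = 1.27e-05, both edgeR). Both act in the making of dTTP, and umps-1, of the pyrimidine pathway, fell by 2.67 ± 0.33 with food and fell by 1.73 ± 0.32 without (adjusted p = 2.22e-05 and 0.00114, edgeR).

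**Figure D4:**
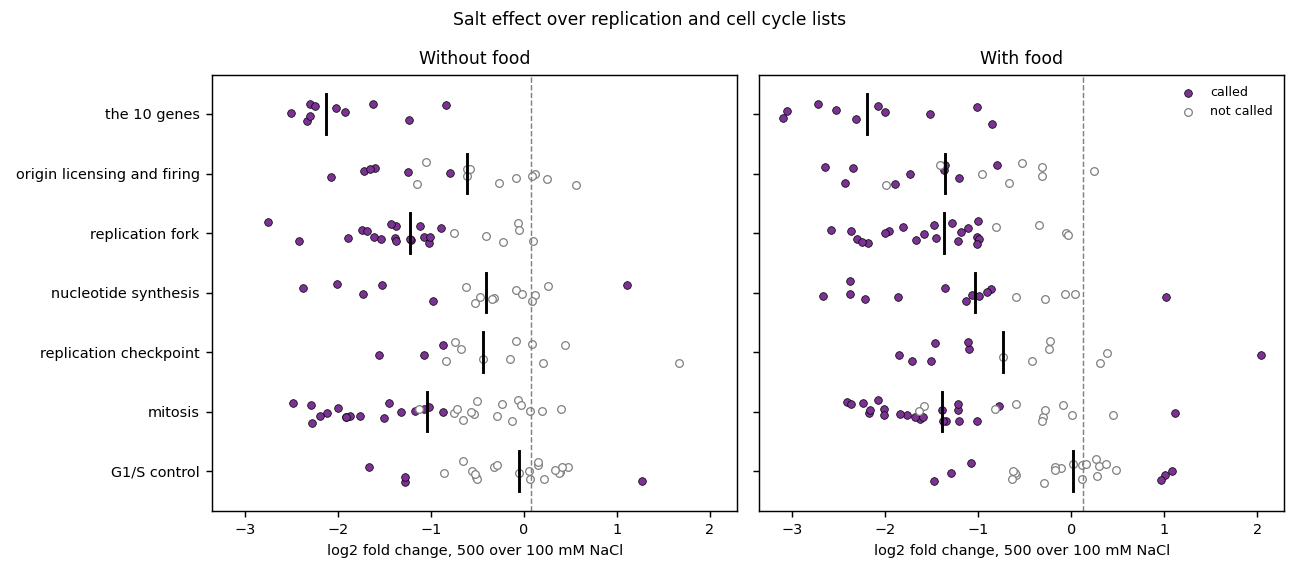
Log2 fold change of 500 over 100 mM NaCl for the 10 genes and for the members of 6 lists, without food on the left and with food on the right. Filled points were called at an adjusted p under 0.05, open points were not, black bars are list medians and the dashed line is the median of all 18028 genes; the 10 genes have medians of -2.13 and -2.19.

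In the list on control of S phase entry, of 23 genes 3 were called lower and 3 higher with food, and 3 lower and 1 higher without, with medians of 0.02 and -0.06. Over all genes 22.1% were called lower and 16.1% higher with food, and 11.2% lower and 6.72% higher without. With no count filter the lower calls with food numbered 5 in place of 3. The inhibitor gene cki-2, of the CIP/KIP family, was higher in high salt, at 48.5 and 37.0 CPM on average in unfed and fed high-salt larvae, against 20.1 and 17.4 CPM in unfed and fed low-salt larvae. Its log2 fold change was 1.08 ± 0.22 with food (adjusted p = 0.00139) and 1.27 ± 0.22 without food (adjusted p = 0.000811, both edgeR, n = 3 each). With no count filter cki-2 was not called with food (0.82, adjusted p = 0.056, edgeR). The Rb homologue lin-35 fell by 1.28 ± 0.29 without food (adjusted p = 0.00584) and the E2F-family gene efl-3 fell by 1.48 ± 0.32 with food (adjusted p = 0.0018, both edgeR). Cyclin D, cyd-1, was higher in fed high-salt than in fed low-salt larvae (log2 fold change 1.0 ± 0.26, adjusted p = 0.00646), a call lost without fed high-salt C or fed low-salt A (adjusted p = 0.066 and 0.0557) and with no count filter (0.73, adjusted p = 0.0956, all edgeR).

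In the replication checkpoint list 6 of 13 genes were called lower and 1 higher with food, and 3 lower without, with medians of -0.73 and -0.45. For this list and the mitosis genes below, the shares over all genes were 22.1% lower and 16.1% higher with food, and 11.2% lower without. Upper-quartile scaling gave 3 and 1 lower calls in the checkpoint list. Without food 1 was called lower when any of unfed high-salt B, unfed low-salt C, fed low-salt A or fed low-salt B was left out. The kinase gene chk-1 fell by 1.71 ± 0.25 with food (adjusted p = 9.55e-05) and fell by 1.56 ± 0.25 without food (adjusted p = 0.000393, both edgeR). The ATR homologue atl-1 had log2 fold changes of 0.38 and 0.21 (adjusted p = 0.363 and 0.711), and with food it was called higher under upper-quartile scaling (0.84, adjusted p = 0.0433, all edgeR). Of 32 mitosis genes 21 were called lower and 1 higher with food and 17 lower without food (11 when only those groups entered the fit, and 11 without unfed low-salt C), among them cdk-1, which fell by 2.41 ± 0.26 with food and fell by 2.48 ± 0.26 without (adjusted p = 7.08e-06 and 8.63e-06, edgeR).

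The lists were also compared between unfed and fed larvae in low salt, where 4.11% of all genes were called lower and 3.57% higher. In edgeR's quasi-likelihood test 0 of 17 genes of origin licensing and firing, 0 of 24 fork genes and 0 of 13 checkpoint genes were called in unfed against fed low-salt larvae, with 2, 1 and 0 at an unadjusted p under 0.05, and DESeq2 and the exact test called 0 in each. Without unfed high-salt A and fed high-salt C together 1 gene of the licensing list was called, and 1 when only those groups entered the fit. Of nucleotide synthesis 1 of 16 genes was called, the purine gene adsl-1, at 37.8 ± 10.1 CPM in unfed and 71.1 ± 8.37 CPM in fed low-salt larvae (log2 fold change -0.91 ± 0.26, adjusted p = 0.0459, edgeR, n = 3 each). In that list 8 of 16 genes had an unadjusted p under 0.05 in edgeR's quasi-likelihood test, for which the share of all genes was not counted. DESeq2 called 5 in the list and 2658 of all 18028 genes, and edgeR's exact test called 4 and 2217. The list's median log2 fold change was -0.50 beside 0.15 over all genes. Lower calls numbered 4 with unfed high-salt A left out, 3 with a filter of 5 CPM and 5 with only those groups in the fit. Over all genes those settings called 1411 of 18392, 803 of 11807 and 1740 of 15118 lower. Leaving out unfed low-salt C brought the list's count to 5, where 1394 of 19857 genes were called lower. Leaving out any of 9 other libraries brought the list's count to 0. The other calls were cyd-1, higher in unfed larvae (1.0 ± 0.26, adjusted p = 0.0288), and spd-5, lower in them (-1.20 ± 0.25, adjusted p = 0.0114, both edgeR). The call on cyd-1 was lost without any 1 of the 6 low-salt libraries, fed high-salt B or fed high-salt C, and that on spd-5 without unfed low-salt A or B or fed low-salt B or C.

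Summed markers of some cell types moved with salt or food as well. Only the intestine sum lay apart between salt levels both with and without food. Germline and neuron sums lay apart between salt levels with food only. Sums of embryo, of epidermis and seam, and of muscle overlapped between salt levels at each food level. The muscle sum was lower in unfed than in fed libraries at both salt levels, and that of epidermis and seam in high salt. Summed levels of 13 intestine markers were 1614 to 2622 CPM in unfed and 1922 to 2287 CPM in fed high-salt larvae, against 3911 to 7777 CPM in unfed and 6967 to 7706 CPM in fed low-salt larvae, and 8 of 12 tested were called lower in high salt at each food level, beside 22.1% of all genes with food and 11.2% without, while 1 was called higher with food and 2 without. Summed germline markers, 14 genes, were 167 to 179 CPM and 179 to 196 CPM in unfed and fed high-salt larvae, against 154 to 255 CPM in unfed and 465 to 561 CPM in fed low-salt larvae. Of these, 8 were called lower in high salt with food and 2 without food, beside 22.1% and 11.2% of all genes. In unfed against fed low-salt larvae 6 were called lower, beside 4.11% of all genes and 0 of the 10 replication genes. The 16 embryo markers summed to 262 to 321 CPM and 280 to 374 CPM in unfed and fed high-salt larvae, against 250 to 362 CPM and 336 to 390 CPM in unfed and fed low-salt larvae. Of these 16, 5 were called lower in high salt with food and 2 without food, beside 22.1% and 11.2% of all genes. Epidermis and seam markers summed to 584 to 976 CPM and 986 to 1075 CPM in unfed and fed high-salt larvae, against 888 to 1228 CPM and 1052 to 1177 CPM in unfed and fed low-salt larvae. Of 13 tested, 4 were called lower and 2 higher in high salt at each food level. Over all genes 22.1% were called lower and 16.1% higher with food, and 11.2% lower and 6.72% higher without. Muscle markers summed to 6178 to 12025 CPM and 12489 to 16889 CPM, against 4150 to 8539 CPM and 9132 to 14416 CPM in the same groups, and neuron markers to 1384 to 2783 CPM and 2107 to 2427 CPM, against 2318 to 3056 CPM and 1443 to 1695 CPM. Of 9 muscle markers tested, 2 were called lower and 2 higher in high salt with food, and 1 higher without food. Of 10 neuron markers, 1 was called higher with food, and 1 lower and 1 higher without food. The all-gene shares given for epidermis and seam are also those for the muscle and neuron counts and for the higher calls among intestine markers. One defining muscle marker, hlh-1, was listed at 0 reads in all 12 libraries, which is not taken as absence of its RNA. The part of these cell type markers, of depth and of the ribosomal share in the results above was not tested.

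Strand was not kept in these libraries, so reads from a gene and from an overlapping gene on the other strand cannot be told apart. Of the 10 genes, 7 share 4 to 73 nt of annotated exon with such a neighbour, most for mcm-3, and mcm-5, pcn-1 and rnr-1 share none.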

How the data were processed

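RNA-seq libraries of whole larvae were made without strand information, per the labels' protocols. The authors deposited raw read counts per gene, for which the submitters' processing notes name HTSeq and the aligner Bowtie 1.1.2; the HTSeq settings and the genome build are not given in the sources used here, so no coordinates are printed. The deposited workbook also gives the authors' edgeR log2 fold changes, log2 average CPM, p-values and false discovery rates, quoted once in the report as theirs. The build's gene models are not known, so coding lengths and exon overlaps came from Ensembl release 115.

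The 5 summary lines were left out of the 44968 features. In R 4.3.3, edgeR 4.0.16 kept 18028 genes by filterByExpr on groups (minimum count 10, total 15), scaled by TMM, and fitted 1 coefficient per group over 12 libraries with robust, two-sided quasi-likelihood F-tests. SE is the log2 fold change's size over the square root of F. Steps were tested on simulated counts. Alternatives used upper-quartile and RLE factors, edgeR's exact test, DESeq2 1.42.0, other count filters, rRNA genes left out, non-robust fits, only 2 groups, a replicate block, and each library left out.

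The genes and lists were chosen with earlier results of these data known. From each of 6 lists up to 4 genes per comparison were named, by smallest p at a mean of at least 10 CPM; genes outside that rule are marked as such in the text. Of 212 list and marker genes 203 matched a feature. The labels call the libraries biological replicates and do not say from which cultures they came.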

Additional observations from a re-analysis of the deposited data

Results flagged for a closer look

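In the mitosis list 1 of 32 genes was called in the test of the salt by food interaction, beside 2.0% of all genes, so the count is near that share. The gene was spd-5, which encodes a scaffold protein of the centrosome. It averaged 37.5 ± 3.20 CPM in unfed and 29.9 ± 2.92 CPM in fed high-salt larvae, against 61.8 ± 15.0 CPM in unfed and 141 ± 26.8 CPM in fed low-salt larvae (SD, n = 3 each). It fell by 2.24 ± 0.26 with food (adjusted p = 1.2e-05) and had a log2 fold change of -0.72 without food (adjusted p = 0.054, both edgeR). The interaction itself was 1.52 ± 0.35 on the log2 scale (adjusted p = 0.0374, edgeR). Over 21 alternatives it stayed positive, between 1.27 and 1.84, and was called in 12 of them, with adjusted p between 0.000816 and 0.127 (edgeR or DESeq2). The 9 lost calls came with single libraries left out: unfed high-salt C, unfed low-salt A or B, or any 1 of the fed libraries. None of the 10 replication genes had a called interaction in edgeR's quasi-likelihood test or DESeq2 (0 of 10 each, and 0 at an unadjusted p under 0.05).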

How the results depend on the processing

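In the comparisons of salt with and without food, 23 alternatives each kept all 10 genes below 0, and 8 genes plus rnr-2 were called in every one; div-1 was lost in 1 with food and in 3 without food, as given above. Food and the interaction gave 0 calls among the 10 genes under every alternative run. The comparison of fed high-salt with unfed low-salt gave 8 to 10 calls. With a replicate block for the letters A to C, 10, 10 and 10 genes were called in the 3 comparisons across salt levels and 0 in the others. Same-letter libraries correlated between -0.143 and 0.37, with a median of 0.06 and over 0.1 in 7 of 18 pairs. Different-letter libraries had a median of -0.03 and were over 0.1 in 7 of 36 pairs. The letters were not taken as pairs in the reported fit. With the block 7351 genes were called with food and 1673 for food in low salt. Over all genes the calls ranged over 4823 to 8703 with food (6898 as reported), 1811 to 4619 without food (3230), 218 to 3524 for food in low salt (1384), 0 to 207 for food in high salt (14), 63 to 1225 for the interaction (360) and 2497 to 5201 for fed high-salt against unfed low-salt (3885). Upper-quartile scaling moved the all-gene median with food to 0.55 on the log2 scale, beside 0.12, and the 10 genes' median to -1.77, beside -2.19. A change of scaling factors shifts all genes by about the same amount, so the distance between these medians does not test the scaling. Upper-quartile factors also turned the split of calls to 548 lower and 1099 higher for food in low salt (741 and 643 as reported) and to 2049 lower and 2226 higher for fed high-salt against unfed low-salt (2616 and 1269). Other named genes changed sides of the threshold in some alternatives, none in sign among called values. Depth limits fed high-salt C most, with 694 reads on the 10 genes.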
